A study of Mus musculus with 12 samples.

Results

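The mitosis genes are 52 genes for mitotic kinases, cyclins, checkpoint and kinetochore proteins, kinesins, cytokinesis proteins and condensin subunits, taken by symbol from a deposited table of 25117 gene symbols. All 52 were in the table, and all 52 passed the filter on low values (at least 1 TPM in at least 3 libraries) that left 12653 genes to test. The 12 RNA-seq libraries are from cultured fibroblasts of mouse embryos (MEFs), with 3 in each of 4 groups. All 4 groups are Rbbp5 (flox/flox) and homozygous for Rosa26 CRE, so the controls carry the floxed alleles and Cre too. The libraries labelled KO came from cells given tamoxifen for 7 days, and those labelled WT from cells not given it. For the last 16 hours the medium was either EBSS, a buffered salt solution with glucose but neither serum nor amino acids, or full DMEM with 10% FBS. The groups were labelled KO in EBSS, labelled WT in EBSS, KO in full medium and WT in full medium. Loss of RBBP5, a core subunit of the histone H3 lysine 4 methyltransferase complexes, and exposure to tamoxifen with active Cre cannot be told apart in this design. The titles number the 3 libraries of a group as brep 1 to 3, and no label says whether they came from separate cultures or embryos. The p-values measure the spread between these libraries, which may be technical.

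Cells enter mitosis when CDK1 with cyclin B is switched on. The spindle checkpoint then holds the cyclosome, a ubiquitin ligase also called APC/C, inactive until the kinetochores of all chromosomes are attached to the spindle. Separase then cuts cohesin, and the central spindle and a contractile ring divide the cell. Transcripts of most of these genes are low in resting cells and early in the cycle and peak in G2 and mitosis. In bulk RNA of a culture, fewer cells in G2 and mitosis cannot be told apart from less of these RNAs in each such cell.

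The peak in G2 and mitosis is known to depend on 2 short promoter elements, the cell cycle genes homology region (CHR), bound by MuvB complexes, and the CCAAT box, bound by NF-Y. Promoter windows of 300 bases (ending 50 bases after the annotated start, RefSeq, GRCm38.p6) were matched by symbol for 42 of the 52 genes. CHR letters (TTTGAA or TTCGAA, on either strand) were in the windows of 33 of these 42 genes (78.6%), and of 21.7% of 27025 genes with a window. CCAAT on either strand was also in 33 of the 42 (78.6%), and in 41.1% of all genes. Both were in 30 of the 42 (71.4%), and in 8.61% of all genes. The E2F letters TTTCCCGC or TTTGGCGC, on either strand, were in 2 of the 42 (4.76%) and in 1.8% of all genes. These matches are descriptions of letters in a window and were not tested. The 7 stretches below, each from 110 bases before to 50 bases after the start, 5′ to 3′ on the gene's strand, belong to genes the results turn on: 3 that fell most between EBSS and full medium in labelled WT cells (Plk1, Ttk, Kif23), 3 that differed between KO and WT cells in full medium on both scales (Ccnb2, Cdca8, Nek2) and Cdc20, whose ratio to Plk1 and Ttk changed. Capitals mark the CHR and CCAAT letters on either strand (TTCAAA is the CHR and ATTGG the CCAAT box read on the other strand).
Plk1, chr7:122159325-122159484, plus strand: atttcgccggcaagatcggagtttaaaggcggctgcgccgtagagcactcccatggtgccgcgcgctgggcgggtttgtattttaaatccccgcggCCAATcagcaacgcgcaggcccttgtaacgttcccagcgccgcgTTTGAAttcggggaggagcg
Ttk, chr9:83834579-83834738, plus strand: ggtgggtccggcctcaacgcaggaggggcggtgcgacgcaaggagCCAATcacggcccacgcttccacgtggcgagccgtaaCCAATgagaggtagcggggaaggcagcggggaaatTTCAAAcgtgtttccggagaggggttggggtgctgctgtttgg
Kif23, chr9:61946750-61946909, minus strand: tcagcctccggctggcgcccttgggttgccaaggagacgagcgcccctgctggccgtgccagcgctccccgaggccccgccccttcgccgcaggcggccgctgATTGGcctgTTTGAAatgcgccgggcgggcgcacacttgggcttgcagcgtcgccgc
Ccnb2, chr9:70421505-70421664, minus strand: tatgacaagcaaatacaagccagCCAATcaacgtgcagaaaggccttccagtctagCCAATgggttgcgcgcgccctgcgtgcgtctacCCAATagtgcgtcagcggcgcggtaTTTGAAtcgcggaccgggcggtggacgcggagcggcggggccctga
Cdca8, chr4:124936868-124937027, minus strand: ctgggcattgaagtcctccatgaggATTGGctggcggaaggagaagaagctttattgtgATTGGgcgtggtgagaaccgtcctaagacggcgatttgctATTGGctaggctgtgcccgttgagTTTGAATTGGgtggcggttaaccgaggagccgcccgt
Nek2, chr1:191821363-191821522, plus strand: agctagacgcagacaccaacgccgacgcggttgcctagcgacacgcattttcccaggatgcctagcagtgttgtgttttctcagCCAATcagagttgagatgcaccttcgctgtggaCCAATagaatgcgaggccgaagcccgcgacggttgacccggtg
Cdc20, chr4:118437294-118437453, minus strand: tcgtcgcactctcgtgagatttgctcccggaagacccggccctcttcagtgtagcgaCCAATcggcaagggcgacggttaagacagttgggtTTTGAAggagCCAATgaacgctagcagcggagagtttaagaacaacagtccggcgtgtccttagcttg
Of the 7 stretches only that of Nek2 lacks the CHR letters, and all 7 hold the CCAAT letters. In the Cdca8 stretch the last letter of the CHR is the first of an ATTGG.

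Values are TPM, a transcript's share of its library after correction for length, so levels can be compared between genes. Differences are on the scale of log2(TPM + 1) from a limma fit of all 12 libraries, and a gene is called where its Benjamini-Hochberg adjusted p over the 12653 genes is under 0.05. TPM is a share, so counts of called genes and the differences of the leading genes are given on 2 scales, TPM as deposited and TPM divided by a median-of-ratios size factor ("scaled" below), which sets the typical gene equal between libraries. A difference with no scale named is as deposited. Size factors were 1.18 to 1.27 in labelled KO libraries in EBSS, 0.596 to 0.642 in labelled WT libraries in EBSS, 1.03 to 1.13 in KO libraries in full medium and 1.24 to 1.25 in WT libraries in full medium. Ribosomal protein genes held 31.1% to 33.6% of TPM in the labelled WT libraries in EBSS, and 14.4% to 18.1% in the other 9 libraries. Scaling moved the median of all genes most where the labelled WT libraries in EBSS are compared. The median difference of all tested genes between EBSS and full medium in labelled WT cells was -0.94 as deposited and -0.10 scaled.

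Rbbp5 (ENSMUSG00000026439.14, chromosome 1 from 132477365 to 132505659, GRCm38) followed the labels in full medium, where it had 7.47, 9.34 and 8.31 TPM in KO libraries, against 26.2, 25.7 and 26.2 TPM in WT libraries. In EBSS it had 31.9, 24.6 and 23 TPM in libraries labelled KO, against 12.4, 14 and 11.8 TPM in libraries labelled WT. The targeted gene thus goes against the genotype labels in EBSS as deposited, by 0.99 on the log2 scale (adjusted p = 3.2e-05). Scaled, it did not follow them, with a difference of 0.08 (adjusted p = 0.56). Labelled WT libraries in EBSS lay above KO libraries in full medium, by 0.55 (adjusted p = 0.0026) and by 1.31 scaled (adjusted p = 2.6e-06). Labelled KO libraries in EBSS differed from WT libraries in full medium by 0.01 as deposited and 0.05 scaled. Every statement below on EBSS groups is on libraries "labelled" KO or WT. Whether the genotype or medium labels hold there was not tested. An exchange of the genotype labels would turn the sign of each difference between the labels in EBSS and change the interaction. Within the EBSS groups, 1 library of each label stands apart from its group mates. Replicate 1 of labelled KO in EBSS had 47 of the 52 mitosis genes below both group mates, where 36.6% of all tested genes were. Replicate 3 of labelled WT in EBSS had 1122 of the tested genes listed at 0, against 12 to 229 in each of the other 11 libraries, and held 48.4 TPM of Lyz2, a macrophage gene, against 0.213 to 5.19 TPM elsewhere.

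In WT cells in full medium the mitosis genes were well expressed and tight between libraries. Their median level was 69.4 to 70.4 TPM, the gene with the lowest level was Cenpf, a kinetochore protein (10.2, 10.5 and 10.5 TPM), and the highest was Ube2c, the ubiquitin-conjugating enzyme of the APC/C (396, 370 and 396 TPM). The median coefficient of variation over the 52 genes was 17.8% in the libraries labelled KO in EBSS, 14.1% in those labelled WT in EBSS, 8.88% in KO and 2.58% in WT libraries in full medium. The spread within a group was thus several times larger in both EBSS groups than in WT cells in full medium. For Ccnb1, Ccnb2, Kif4 and Kif22 the annotation names a pseudogene, and reads of these 4 genes may be shared with it, which leaves their values uncertain.

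**Figure D1:**
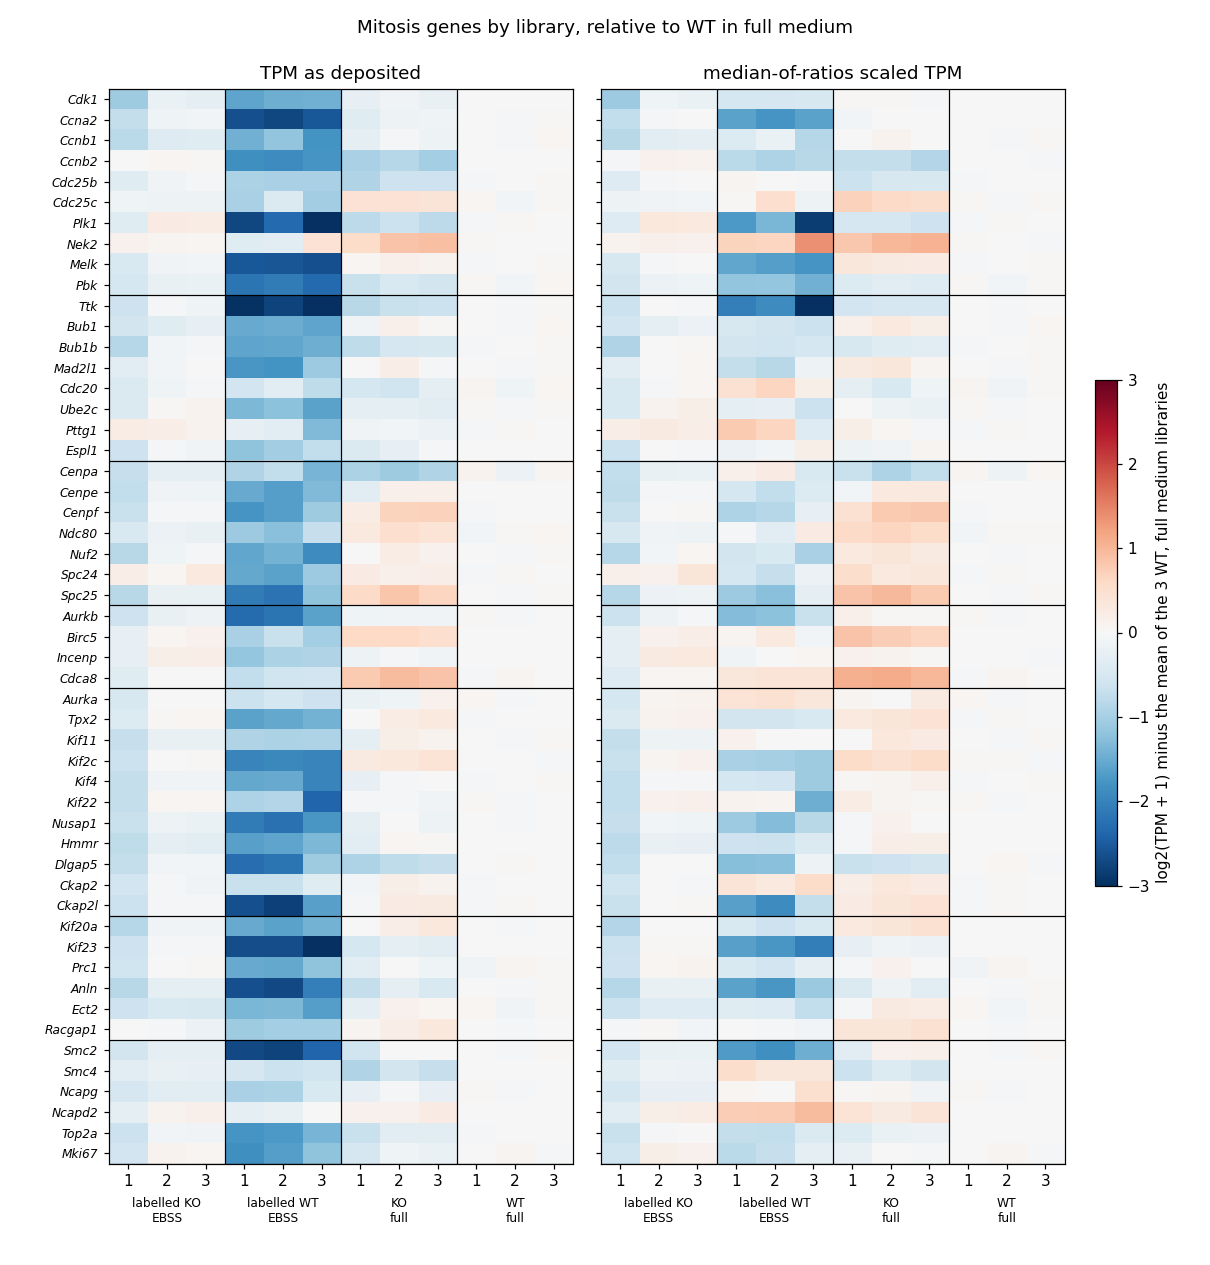
Each row is 1 of the 52 mitosis genes in order of role (lines part the 7 roles) and each column 1 library; colour is log2(TPM + 1) minus the mean of the 3 WT libraries in full medium, for TPM as deposited on the left and scaled on the right. The labelled WT libraries in EBSS are low for most genes on the left and for part of them on the right, and replicate 1 of labelled KO in EBSS is lower than replicates 2 and 3.

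The sum over the 52 genes was 3280, 4410 and 4440 TPM in the libraries labelled KO in EBSS, 1780, 1880 and 1880 TPM in those labelled WT in EBSS, 4080, 4590 and 4520 TPM in KO libraries in full medium and 4630, 4560 and 4680 TPM in WT libraries in full medium. Scaled, the sums were 2580, 3710 and 3770 in labelled KO in EBSS, 2980, 2990 and 2930 in labelled WT in EBSS, 3980, 4080 and 4020 in KO and 3730, 3690 and 3740 in WT cells in full medium. As deposited, the labelled WT libraries in EBSS were lowest by far, and the KO and WT libraries in full medium overlapped. Scaled, the 3 KO libraries in full medium lay above all 3 WT libraries, and the lowest library of all was replicate 1 of labelled KO in EBSS. A ratio to the summed TPM of 50 DNA replication genes does not depend on either scale. It was 0.646, 0.817 and 0.826 in labelled KO in EBSS, 0.461, 0.489 and 0.472 in labelled WT in EBSS, 0.709, 0.772 and 0.755 in KO cells in full medium, and 0.793, 0.79 and 0.801 in WT cells in full medium. The 3 labelled WT libraries in EBSS were below the other 9, and the 3 KO libraries in full medium below the 3 WT libraries. In full medium the replication gene Rrm2 alone had 475, 518 and 537 TPM in KO libraries, against 220, 210 and 218 TPM in WT libraries. The order of KO and WT libraries in this ratio may rest on that gene, which was not tested.

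KO against WT in full medium asks what 7 days of tamoxifen did to cells that were still fed. The mitosis genes did not move one way. As deposited, 7 of 52 were called higher and 12 lower, where 20.1% of all tested genes were called higher and 35.8% lower. Scaled, 12 were higher and 5 lower, where 26.8% of all tested genes were higher and 27% lower. The median difference was -0.10 as deposited, against -0.17 over all tested genes, and 0.09 scaled, against 0.01. On both scales the same 7 genes were higher (Cdc25c, Nek2, Ndc80, Spc25, Birc5, Cdca8, Racgap1) and 5 were lower (Ccnb2, Cdc25b, Pbk, Cenpa, Smc4).

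Among the kinases, cyclins and phosphatases of mitotic entry, 2 of 10 were higher and 4 lower as deposited. Cdk1, the mitotic kinase itself, has the highest mean of the 10 over all 12 libraries (97.3 TPM, against 96.8 TPM for Ccna2). It had 111, 122 and 113 TPM in KO libraries, against 132, 132 and 131 TPM in WT libraries, and was not called (-0.19 ± 0.18 SE, adjusted p = 0.39). Ccnb2, one of the B-type cyclins, had 52.6, 57.7 and 51.1 TPM in KO libraries, against 105, 106 and 104 TPM in WT libraries. Its 3 KO values lay far below the WT values, and it fell by 0.96 ± 0.07 (SE) on the log2 scale (adjusted p = 1.1e-06), and by 0.77 scaled (adjusted p = 1.1e-05). The other cyclins did not share this: Ccnb1 differed by -0.15 (adjusted p = 0.42) and Ccna2, cyclin A2, by -0.21 (adjusted p = 0.24). The phosphatases that switch CDK1 on split. Cdc25b had 29.6, 36.2 and 36.6 TPM in KO libraries, against 55.6, 56.5 and 57.8 TPM in WT libraries, and fell by 0.72 (adjusted p = 0.00014; -0.53 scaled). Cdc25c had 30.2, 30.2 and 29.6 TPM in KO libraries, against 23, 21 and 22.7 TPM in WT libraries, and rose by 0.42 (adjusted p = 0.025; 0.60 scaled). No KO value overlapped a WT value for either phosphatase. Nek2, a centrosome kinase, had 55.6, 69 and 72 TPM in KO libraries, against 38.5, 37.7 and 37.2 TPM in WT libraries, and rose by 0.77 ± 0.18 (adjusted p = 0.0041; 0.95 scaled). Plk1, the polo-like kinase that drives centrosome maturation and spindle assembly, had 50.8, 56.4 and 51.1 TPM in KO libraries, against 86.2, 90.3 and 88 TPM in WT libraries. The groups were well apart, but the error is pooled over all 4 groups, and this gene spread from 5.8 to 16.7 TPM in labelled WT libraries in EBSS. It fell by 0.73 ± 0.28 as deposited (adjusted p = 0.045) and differed by -0.54 scaled (adjusted p = 0.16).

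Of the 8 genes of the spindle checkpoint, APC/C and separase, 0 were higher and 3 lower as deposited, and none was called scaled. Ttk, the checkpoint kinase Mps1, had 21.5, 24.5 and 24.6 TPM in KO libraries, against 39.8, 38 and 39.9 TPM in WT libraries (-0.71, adjusted p = 0.038; -0.53 scaled, adjusted p = 0.16). Bub1b, the checkpoint protein BUBR1, fell by 0.58 as deposited (adjusted p = 0.018) and differed by -0.40 scaled (adjusted p = 0.11). Its relative Bub1 differed by 0.03 (adjusted p = 0.84). Cdc20, the APC/C activator that the checkpoint holds back, fell by 0.47 as deposited (adjusted p = 0.012) and differed by -0.28 scaled (adjusted p = 0.14). Ube2c had 315, 315 and 307 TPM in KO libraries, against 396, 370 and 396 TPM in WT libraries, and was not called (-0.31, adjusted p = 0.067). The 4 remaining genes, Bub1 and Mad2l1 of the checkpoint, the securin Pttg1 and the separase Espl1, were not called on either scale.

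At the centromere and kinetochore, Cenpa fell, and Ndc80 and Spc25, which encode 2 of the 4 subunits of the microtubule-binding NDC80 complex, rose. Cenpa, the histone H3 variant that marks centromeres, had 66.3, 61.1 and 69.1 TPM in KO libraries, against 138, 115 and 136 TPM in WT libraries. It fell by 0.97 ± 0.17 (adjusted p = 0.00049), the largest fall among the 52 genes as deposited, and by 0.78 scaled (adjusted p = 0.005). Spc25 had 100, 119 and 104 TPM in KO libraries, against 67.1, 64.1 and 68.1 TPM in WT libraries, and rose by 0.69 ± 0.24 (adjusted p = 0.029; 0.87 scaled). Ndc80 rose by 0.41 (adjusted p = 0.025; 0.59 scaled). The other subunits, Spc24 and Nuf2, differed by 0.20 and 0.12 as deposited and were not called. Nuf2 was not called scaled either (0.31, adjusted p = 0.24), and Spc24 was called higher scaled (0.39, adjusted p = 0.023), as was Cenpf (0.69, adjusted p = 0.023). The kinetochore motor Cenpe was not called on either scale. In each library the ratio of Ndc80 to Cenpa, which depends on neither scale, was 1.19, 1.5 and 1.23 in KO cells, against 0.438, 0.564 and 0.487 in WT cells.

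The chromosomal passenger complex, made of the Aurora B kinase and its partners, was also split. Cdca8, which encodes the subunit borealin, had 175, 197 and 182 TPM in KO libraries, against 97, 106 and 99.7 TPM in WT libraries. It rose by 0.87 ± 0.10 (adjusted p = 3e-05) and by 1.05 scaled (adjusted p = 2e-05), the largest rise among the 52 genes on both scales. Birc5, which encodes survivin, had 338, 340 and 318 TPM in KO libraries, against 227, 222 and 224 TPM in WT libraries, and rose by 0.56 ± 0.11 (adjusted p = 0.0013; 0.75 scaled). The kinase gene Aurkb and the scaffold gene Incenp differed by -0.11 and -0.09 and were not called on either scale. The ratio of Cdca8 to Incenp within a library was 1.78, 1.85 and 1.8 in KO cells, against 0.885, 0.967 and 0.927 in WT cells.

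Of the 11 spindle motors and spindle proteins, 0 were higher and 1 lower as deposited. Tpx2, the activator of Aurora A, had 157, 181 and 190 TPM in KO libraries, against 152, 158 and 158 TPM in WT libraries (0.17, adjusted p = 0.26; 0.36 scaled, adjusted p = 0.035). Dlgap5, the spindle protein HURP, had 25.7, 29 and 30.5 TPM in KO libraries, against 49.1, 51.3 and 49.1 TPM in WT libraries. It fell by 0.79 ± 0.28 as deposited (adjusted p = 0.03) and differed by -0.61 scaled (adjusted p = 0.09). Kif2c, a kinesin that takes microtubules apart, was called higher only scaled (0.52, adjusted p = 0.024). The other 8, Aurka, Kif11, Kif4, Kif22, Nusap1, Hmmr, Ckap2 and Ckap2l, lay between -0.16 and 0.16 as deposited and were not called on either scale.

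Among the 6 central spindle and cytokinesis genes 1 was higher and 1 lower as deposited. Racgap1, a subunit of centralspindlin, had 154, 168 and 182 TPM in KO libraries, against 148, 142 and 148 TPM in WT libraries, and rose by 0.20 ± 0.08 (adjusted p = 0.039; 0.39 scaled, adjusted p = 0.00027). Anln, the ring scaffold anillin, fell by 0.50 as deposited (adjusted p = 0.045) and differed by -0.31 scaled (adjusted p = 0.2). Kif23, the motor subunit of centralspindlin, had 56.8, 68 and 66.1 TPM in KO libraries, against 81.4, 82.2 and 83.6 TPM in WT libraries, and was not called (-0.37, adjusted p = 0.063). Of the condensin and mitotic chromosome genes, Smc4, a core ATPase of condensin, had 63.7, 82.3 and 74.4 TPM in KO libraries, against 120, 120 and 122 TPM in WT libraries, and fell by 0.72 ± 0.09 (adjusted p = 4.9e-05; -0.53 scaled, adjusted p = 0.0004). Its partner Smc2 had 49.6, 75.2 and 75.8 TPM in KO libraries, against 75.4, 73.6 and 77.2 TPM in WT libraries, and was not called (-0.20, adjusted p = 0.33). The other condensin genes, Ncapg and Ncapd2, differed by -0.18 and 0.17 as deposited, and Ncapd2 was called higher scaled (0.36, adjusted p = 0.034). Top2a, topoisomerase II alpha, had 114, 144 and 146 TPM in KO libraries, against 180, 184 and 185 TPM in WT libraries, and fell as deposited (-0.45, adjusted p = 0.029; -0.26 scaled, adjusted p = 0.18). The proliferation marker Mki67 differed by -0.28 as deposited and -0.09 scaled, and was not called.

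**Figure D2:**
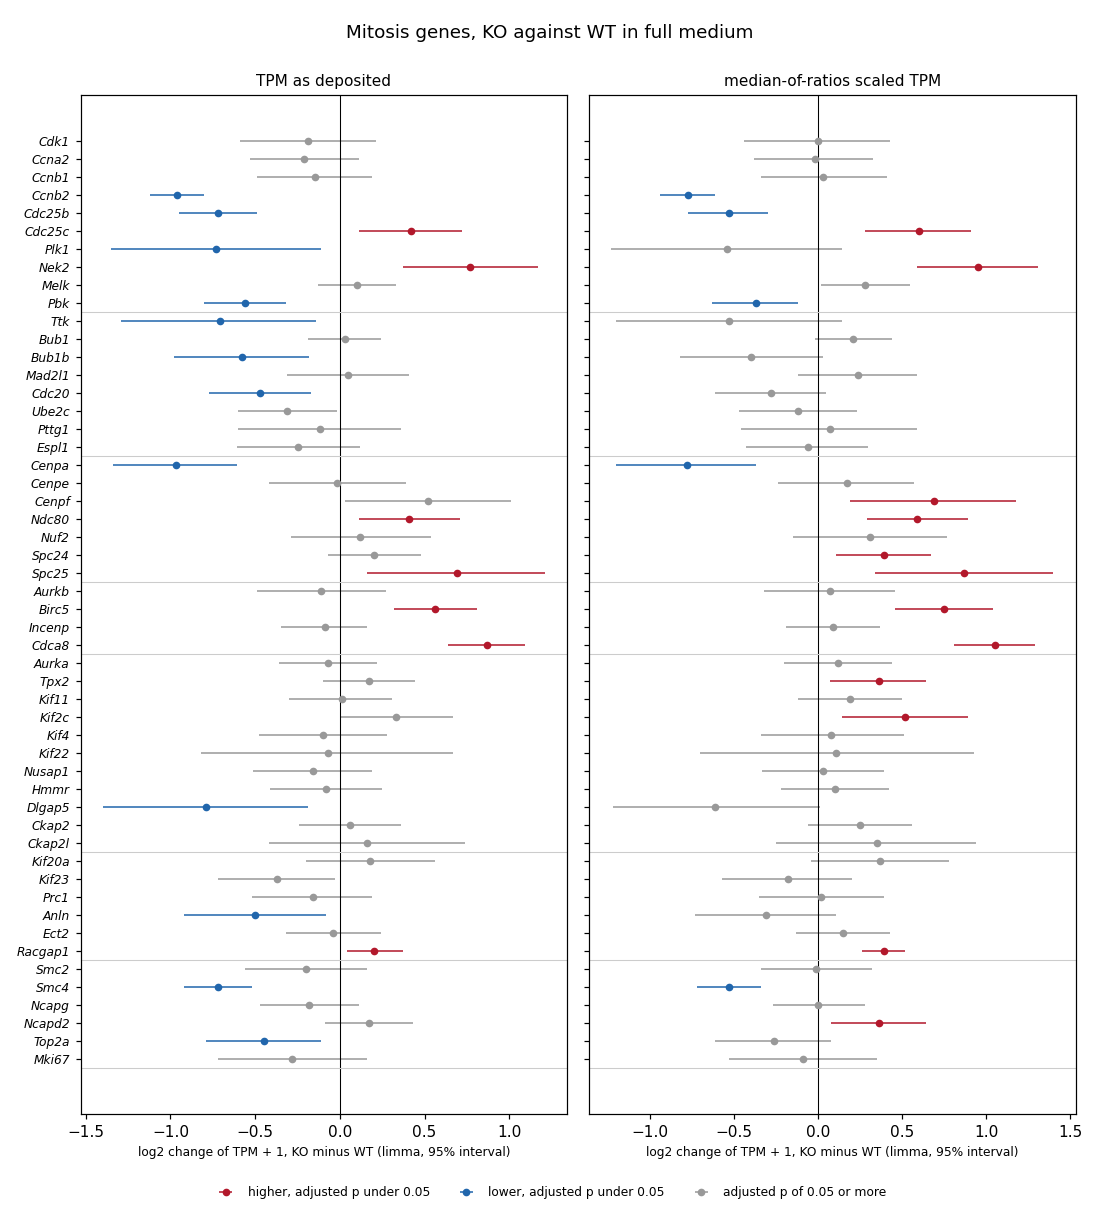
Points are log2 differences, KO minus WT in full medium, of the 52 mitosis genes in order of role, with 95% intervals from limma, as deposited on the left and scaled on the right; red and blue mark adjusted p under 0.05. Cdca8, Nek2 and Spc25 lie farthest right and Cenpa, Ccnb2 and Smc4 stay left of 0 on both scales.

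Other cell markers moved with this comparison, and their part in the differences above was not tested. Of 12 fibroblast markers 10 were lower in KO cells on both scales, and the list summed to 4440 to 5150 TPM in KO libraries, against 7410 to 7450 TPM in WT libraries. Skeletal muscle markers summed to 54.1 to 66.8 TPM in KO libraries, against 3.36 to 4.33 TPM in WT libraries, nearly all of it Acta1 (45.5 to 58.1 TPM in KO libraries), while Myod1, which defines muscle precursors, was at 0 to 0.0428 TPM. Of the 3 tested muscle markers 2 were called higher and 1 lower. Macrophage markers summed to 63.8 to 68.7 TPM in KO libraries, against 28.6 to 29.7 TPM in WT libraries, mostly Cd68 (56.4 to 62 TPM in KO libraries), with Ptprc, a marker of all leukocytes, at 0.176 to 0.38 TPM in KO libraries. Of the 3 tested macrophage markers 1 was called higher and 1 lower. Epithelial markers summed to 248 to 284 TPM in KO libraries, against 160 to 174 TPM in WT libraries, mostly Krt19 (237 to 271 TPM in KO libraries, against 154 to 169 TPM in WT libraries), and 3 of the 4 tested were called higher and 0 lower. Of 4 tested neural markers 0 were higher and 2 lower as deposited, and 2 were higher and 2 lower scaled. Nes had 49.9 to 55.9 TPM in KO libraries, against 132 to 144 TPM in WT libraries. Tubb3 went the other way, with 21.3 to 23.7 TPM in KO libraries, against 11.7 to 12.1 TPM in WT libraries. Counts of called mitosis genes depended on single libraries: without replicate 2 of KO in full medium 3 were higher, and without replicate 1 of that group 6 were lower. The shares of all tested genes called in those fits were not computed.

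EBSS against full medium in libraries labelled WT asks, as labelled, what 16 hours of starvation did without tamoxifen. Rbbp5 differed by -0.98 as deposited (adjusted p = 3.3e-05), against a median of -0.94 over all tested genes, and by -0.03 scaled (adjusted p = 0.82). As Rbbp5 does not follow the labels in EBSS, whether these cells had no tamoxifen is in doubt and was not tested. Most mitosis genes fell as deposited, as did most genes. As deposited, 0 of 52 were called higher and 50 lower, where 9.25% of all tested genes were higher and 71.8% lower. Scaled, 7 were higher and 33 lower, where 30.3% of all tested genes were higher and 35.7% lower. The median difference was -1.50 as deposited, against -0.94 over all tested genes, and -0.52 scaled, against -0.10. All 33 genes lower on the scaled values were also lower as deposited. Of 50 replication genes, 5 were higher and 39 lower as deposited, with a median of -0.83, and 23 were higher and 13 lower scaled, with a median of 0.16. The difference between the lists was not tested.

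The largest falls were in kinases and in the midzone motor. Ttk had 4.13, 4.89 and 1.55 TPM in labelled WT libraries in EBSS, against 39.8, 38 and 39.9 TPM in WT libraries in full medium. It fell by 3.24 ± 0.26 (adjusted p = 5.7e-07), and by 2.39 scaled (adjusted p = 4.2e-05). Plk1 had 12.4, 16.7 and 5.8 TPM in labelled WT libraries in EBSS, against 86.2, 90.3 and 88 TPM in WT libraries in full medium, and fell by 2.93 ± 0.28 (adjusted p = 2.1e-06; -1.98 scaled, adjusted p = 0.00021). Replicate 3 was the lowest EBSS library for both kinases, and without it the falls were 2.87 for Ttk and 2.54 for Plk1. Kif23 had 12.3, 12.1 and 9.54 TPM in labelled WT libraries in EBSS, against 81.4, 82.2 and 83.6 TPM in WT libraries in full medium, and fell by 2.77 ± 0.16 (adjusted p = 4.6e-08; -1.82 scaled, adjusted p = 5.4e-06). No EBSS value of these genes came near a full medium value.

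Among the entry genes 9 of 10 were lower as deposited and 7 scaled. Ccna2 had 21.2, 19.8 and 22.6 TPM in labelled WT libraries in EBSS, against 136, 134 and 139 TPM in WT libraries in full medium (-2.63; -1.66 scaled, adjusted p = 5.5e-06). Cdk1 fell less, to 43.5, 47.1 and 48.2 TPM in labelled WT libraries in EBSS, against 132, 132 and 131 TPM in WT libraries in full medium (-1.49; -0.51 scaled, adjusted p = 0.042). The kinases Melk and Pbk, both typical of dividing cells, fell by 2.58 and 2.22 (scaled -1.66 and -1.26). Ccnb2 fell by 1.84 and Ccnb1 by 1.47 (scaled -0.86 and -0.49). Nek2 was the exception, with 29.2, 30.1 and 51.8 TPM in labelled WT libraries in EBSS, against 38.5, 37.7 and 37.2 TPM in WT libraries in full medium. It differed by -0.08 as deposited (adjusted p = 0.7) and was higher by 0.90 scaled (adjusted p = 0.00063). Cdc25b and Cdc25c fell by 0.97 and 0.81 as deposited and differed by 0.01 and 0.13 scaled.

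Of the checkpoint and APC/C genes all 8 were lower as deposited, and 5 were lower and 1 higher scaled. Cdc20 had 72.5, 85.8 and 64.1 TPM in labelled WT libraries in EBSS, against 115, 100 and 113 TPM in WT libraries in full medium. It fell by 0.56 ± 0.14 as deposited (adjusted p = 0.0024) and was higher by 0.43 scaled (adjusted p = 0.027), so its direction depends on the scale. Its ratio to Plk1 in the same library was 5.85, 5.15 and 11.1 in labelled WT in EBSS, against 1.34, 1.11 and 1.28 in WT in full medium, and its ratio to Ttk was 17.6, 17.5 and 41.4 in labelled WT in EBSS, against 2.9, 2.64 and 2.83 in WT in full medium. Ube2c had 151, 164 and 127 TPM in labelled WT libraries in EBSS, against 396, 370 and 396 TPM in WT libraries in full medium (-1.40; -0.40 scaled, adjusted p = 0.044). Bub1, Bub1b and Mad2l1 fell by 1.53, 1.54 and 1.55, and each by 0.56 scaled.

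All 7 kinetochore genes were lower as deposited and 5 scaled. Spc25 had 14.7, 13.6 and 28 TPM in labelled WT libraries in EBSS, against 67.1, 64.1 and 68.1 TPM in WT libraries in full medium (-1.84; -0.88 scaled, adjusted p = 0.0079). Cenpa had 68.5, 77.2 and 48.3 TPM in labelled WT libraries in EBSS, against 138, 115 and 136 TPM in WT libraries in full medium (-1.02; -0.03 scaled, adjusted p = 0.91). In the passenger complex Aurkb was set apart from its partners. It had 13.5, 14.9 and 22.9 TPM in labelled WT libraries in EBSS, against 73.7, 69.7 and 70.8 TPM in WT libraries in full medium, and fell by 2.03 (adjusted p = 8e-07) and by 1.07 scaled (adjusted p = 0.0003). Birc5 had 114, 140 and 110 TPM in labelled WT libraries in EBSS, against 227, 222 and 224 TPM in WT libraries in full medium (-0.89; 0.10 scaled, adjusted p = 0.51). Incenp differed by -0.01 scaled and Cdca8 was higher by 0.36 scaled (adjusted p = 0.013), though both fell as deposited, by 1.00 and 0.62.

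The spindle genes were all lower as deposited, and 7 of 11 were lower and 2 higher scaled. Tpx2 had 51, 53.5 and 58.1 TPM in labelled WT libraries in EBSS, against 152, 158 and 158 TPM in WT libraries in full medium (-1.51; -0.52 scaled, adjusted p = 0.0041). Aurka, the kinase that Tpx2 activates, had 92.6, 100 and 94.5 TPM in labelled WT libraries in EBSS, against 150, 140 and 145 TPM in WT libraries in full medium (-0.59; higher by 0.40 scaled, adjusted p = 0.029). The ratio of Aurka to Aurkb was 6.85, 6.75 and 4.12 in labelled WT in EBSS, against 2.03, 2 and 2.05 in WT in full medium. Ckap2l, Nusap1 and Kif2c, all bound to spindle microtubules, fell by 2.36, 2.03 and 1.97 (scaled -1.41, -1.07 and -1.01). Dlgap5 had 9.46, 10.1 and 23.1 TPM in labelled WT libraries in EBSS, against 49.1, 51.3 and 49.1 TPM in WT libraries in full medium. Kif22, a chromosome-arm kinesin, had 31.9, 32.7 and 11 TPM in labelled WT libraries in EBSS, against 62.5, 59.6 and 62.1 TPM in WT libraries in full medium. Replicate 3 stood out in opposite directions for these 2 genes.

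In cytokinesis, the subunits of centralspindlin parted. Racgap1 had 69, 71.5 and 71.5 TPM in labelled WT libraries in EBSS, against 148, 142 and 148 TPM in WT libraries in full medium (-1.03; -0.04 scaled, adjusted p = 0.54), while Kif23 fell on both scales. Their ratio, Racgap1 to Kif23, was 5.6, 5.92 and 7.5 in labelled WT in EBSS, against 1.81, 1.72 and 1.78 in WT in full medium. Anln fell by 2.47 (scaled -1.49). Condensin parted as well. Smc2 had 10.7, 10.2 and 13.8 TPM in labelled WT libraries in EBSS, against 75.4, 73.6 and 77.2 TPM in WT libraries in full medium, and fell by 2.62 ± 0.16 (adjusted p = 8.9e-08; -1.66 scaled, adjusted p = 3.3e-06). Its partner Smc4 had 84.2, 77 and 79.2 TPM in labelled WT libraries in EBSS, against 120, 120 and 122 TPM in WT libraries in full medium (-0.59; higher by 0.40 scaled, adjusted p = 0.0017). Ncapd2, a regulatory subunit of condensin I, had 71.5, 75.9 and 89.4 TPM in labelled WT libraries in EBSS, against 88.2, 89.3 and 87.7 TPM in WT libraries in full medium (-0.17, adjusted p = 0.21; higher by 0.82 scaled, adjusted p = 0.00018). The ratio of Smc4 to Smc2 was 7.84, 7.59 and 5.74 in labelled WT in EBSS, against 1.6, 1.63 and 1.58 in WT in full medium. Top2a had 53.3, 55.2 and 69.1 TPM in labelled WT libraries in EBSS, against 180, 184 and 185 TPM in WT libraries in full medium (-1.62; -0.63 scaled, adjusted p = 0.0044). All ratios of gene pairs were chosen after their values were seen and are given as descriptions.

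**Figure D3:**
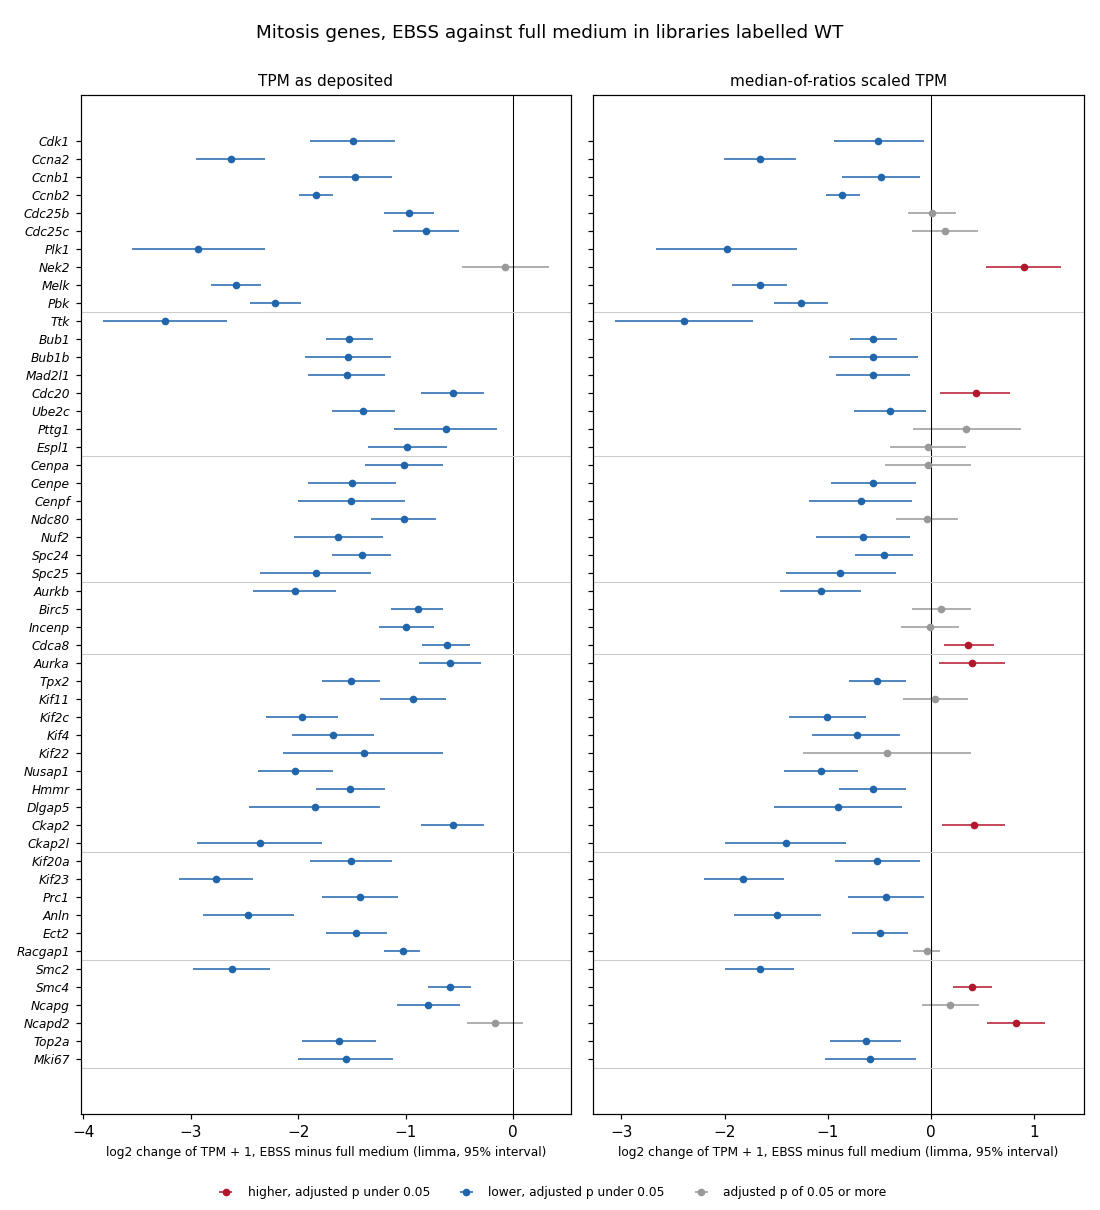
Points are log2 differences, EBSS minus full medium in libraries labelled WT, of the 52 mitosis genes in order of role, with 95% intervals from limma, as deposited on the left and scaled on the right. On the left 50 genes are called lower; on the right 33 are called lower and 7 (Nek2, Cdc20, Cdca8, Aurka, Ckap2, Smc4, Ncapd2) higher.

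The labelled WT libraries in EBSS also differ from the rest in RNA makeup, and its part in these differences was not tested. Beside the ribosomal protein share above, the ribosomal RNA entry Rn45s had 1450 to 2100 TPM in them, against 68.3 to 272 TPM in the other 9 libraries. Of 12 fibroblast markers 0 were higher and 10 lower in EBSS as deposited, where 71.8% of all tested genes were lower, and 2 were higher and 8 lower scaled, where 35.7% were lower, with sums of 3230 to 3630 TPM in labelled WT libraries in EBSS, against 7410 to 7450 TPM in WT libraries in full medium. Medians of the 33 genes with CHR letters and the 9 without them were -1.49 and -1.50 as deposited and -0.51 and -0.56 scaled.

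**Figure D4:**
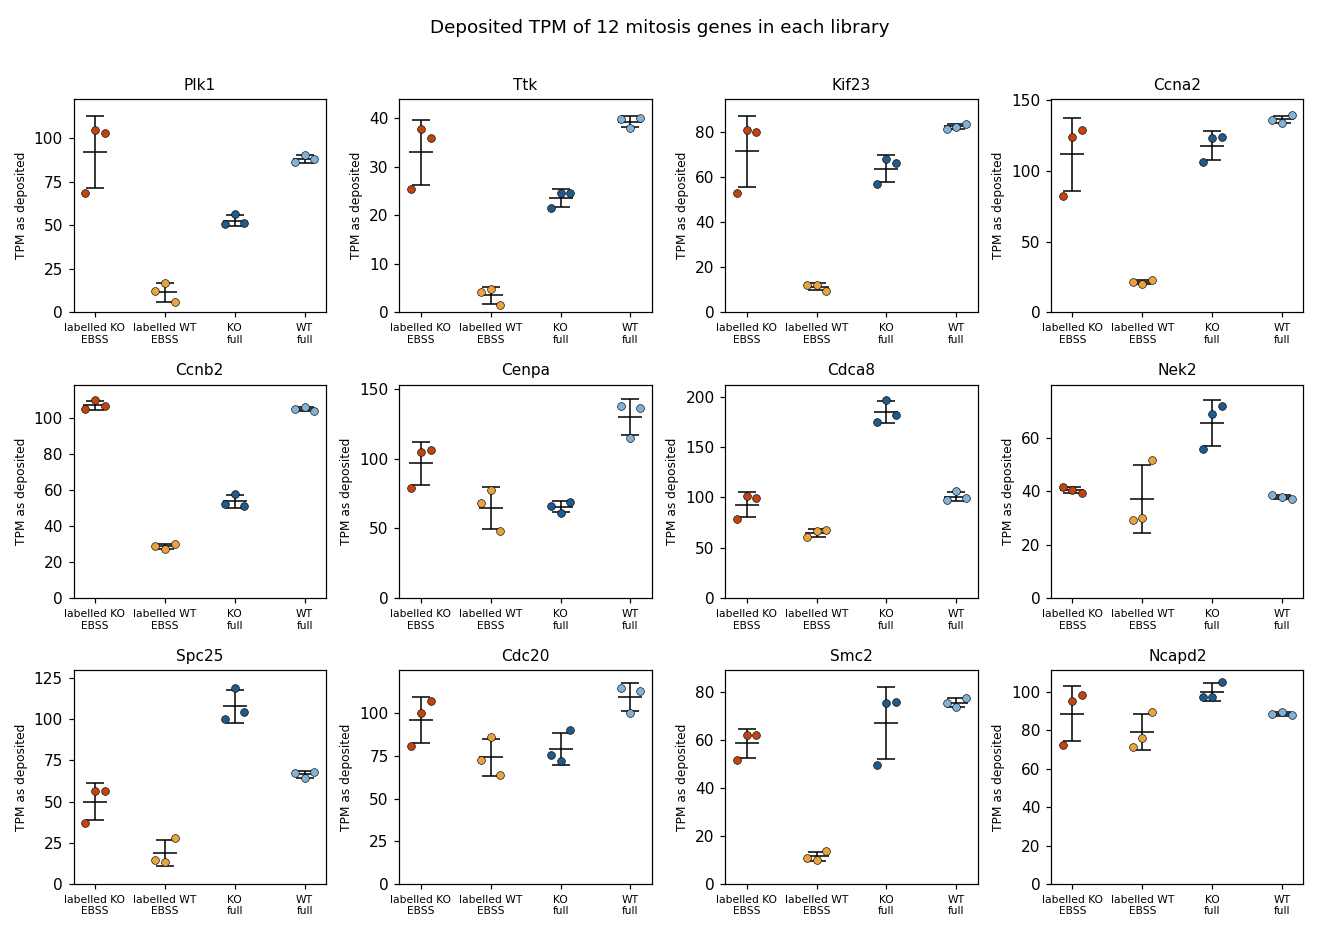
Deposited TPM of 12 mitosis genes in each of the 12 libraries (points), with the mean and SD of each group (bars, n = 3). Plk1, Ttk, Kif23, Ccna2 and Smc2 are lowest in the libraries labelled WT in EBSS, and Cdca8, Nek2 and Spc25 are highest in KO cells in full medium.

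EBSS against full medium in libraries labelled KO gave calls of mitosis genes in both directions. Rbbp5 itself rose in this comparison, by 1.54 (adjusted p = 3.5e-06) and by 1.39 scaled (adjusted p = 3.7e-06). Whether the cells of these EBSS libraries had lost Rbbp5 is thus in doubt and was not tested. As deposited, 5 of 52 were called higher and 14 lower, where 33.3% of all tested genes were higher and 20.9% lower. Scaled, 3 were higher and 21 lower, where 26% of all tested genes were higher and 26.2% lower, and the same 14 were lower on both. The median difference was -0.18 as deposited, against 0.13 over all tested genes, and -0.33 scaled, against 0.00. Ccnb2 had 105, 110 and 107 TPM in labelled KO libraries in EBSS, against 52.6, 57.7 and 51.1 TPM in KO libraries in full medium, and rose by 0.98 ± 0.07 (adjusted p = 1e-06; 0.83 scaled). Cdc25b had 43.7, 52.2 and 54.3 TPM in labelled KO libraries in EBSS, against 29.6, 36.2 and 36.6 TPM in KO libraries in full medium, and rose by 0.54 (adjusted p = 0.0011; 0.39 scaled). Smc4, with 96.2, 104 and 101 TPM in labelled KO libraries in EBSS, against 63.7, 82.3 and 74.4 TPM in KO libraries in full medium, was the third gene higher on both scales (0.45, adjusted p = 0.0014; 0.30 scaled). Plk1 had 68.6, 105 and 103 TPM in labelled KO libraries in EBSS, against 50.8, 56.4 and 51.1 TPM in KO libraries in full medium, and rose by 0.77 as deposited (adjusted p = 0.038; 0.62 scaled, adjusted p = 0.12), as did Cenpa (0.54, adjusted p = 0.017; 0.39 scaled, adjusted p = 0.1).

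The falls were led by kinetochore and passenger genes. Spc25 had 36.8, 56.4 and 56.5 TPM in labelled KO libraries in EBSS, against 100, 119 and 104 TPM in KO libraries in full medium, and fell by 1.12 ± 0.24 (adjusted p = 0.0021; -1.26 scaled). Cdca8 had 78.2, 101 and 99.3 TPM in labelled KO libraries in EBSS, against 175, 197 and 182 TPM in KO libraries in full medium, and fell by 0.99 ± 0.10 (adjusted p = 1.2e-05; -1.14 scaled). Cenpf had 6.19, 9.97 and 10.2 TPM in labelled KO libraries in EBSS, against 12.2, 17.1 and 17.3 TPM in KO libraries in full medium (-0.77, adjusted p = 0.013; -0.89 scaled). No EBSS value of these genes reached a full medium value. Ndc80 fell by 0.69, Nek2 by 0.68, Birc5 by 0.59 and Cdc25c by 0.57, and each was also lower scaled. Fibroblast markers moved in the same comparison, with 11 of 12 higher and 1 lower as deposited (median 1.92) and 10 higher and 1 lower scaled (median 1.76). They summed to 5550 to 7510 TPM in labelled KO libraries in EBSS, against 4440 to 5150 TPM in KO libraries in full medium, and their part in the differences was not tested. This comparison uses the same KO libraries in full medium as the comparison with WT above, so the 2 sets of differences are not independent.

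Replicate 1 of labelled KO in EBSS bears on these values. Its ratio to the mean of replicates 2 and 3 had a median of 0.722 over the 52 genes, against 1.05 over all tested genes. Cdk1 was the lowest, with 62.5 TPM in replicate 1, against 115 and 109 TPM in its group mates (ratio 0.558), and Bub1b was next with 43.1 TPM, against 74.8 and 76.5 TPM (0.569). Ccnb2 (105, against 110 and 107 TPM), Nek2 (41.4, against 40.4 and 39.3 TPM) and Racgap1 (145, against 142 and 130 TPM) were close to their group mates. Without replicate 1, the median difference of the 52 genes between EBSS and full medium in labelled KO libraries was -0.04, and 12 were called higher. The share of all tested genes called in that fit was not computed for this comparison. The count thus cannot show a change particular to the mitosis genes.

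Labelled KO against labelled WT in EBSS gave 50 of 52 mitosis genes called higher and 0 lower as deposited, where 71.9% of all tested genes were higher and 8.58% lower. Scaled, 18 were higher and 9 lower, where 34.8% of all tested genes were higher and 29% lower. The median difference was 1.20 as deposited, against 0.91 over all tested genes, and 0.27 scaled, against 0.10. Ttk had 25.3, 37.7 and 35.9 TPM in libraries labelled KO, against 4.13, 4.89 and 1.55 TPM in libraries labelled WT, a difference of 2.98 (adjusted p = 1.2e-06; 2.17 scaled). Plk1 differed by 2.97 (2.06 scaled) and Kif23 by 2.54 (1.62 scaled), and without replicate 1 of labelled KO the median over the 52 genes was 1.44. Higher on both scales were 18 genes, among them Ccna2 (2.32; 1.39 scaled), Melk (2.37; 1.49 scaled), Smc2 (2.25; 1.34 scaled), Aurkb (1.70; 0.78 scaled) and Anln (2.00; 1.07 scaled). Called higher as deposited and lower scaled were 7 genes: Cdc20, Cdca8, Aurka, Kif11, Ckap2, Smc4 and Ncapg. Ncapd2 and Nek2 were not called as deposited (0.16 and 0.17) and were lower scaled (-0.79 and -0.77). The direction of these 9 genes depends on the scale. Of 12 fibroblast markers 11 were higher and 0 lower as deposited and 8 higher and 2 lower scaled, with sums of 5550 to 7510 TPM in libraries labelled KO, against 3230 to 3630 TPM in libraries labelled WT, and their part was not tested.

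The genotype by medium interaction, the labelled genotype difference in EBSS minus that in full medium, was called positive for 43 of 52 genes and negative for 1 as deposited, where 64.2% of all tested genes were positive and 12.5% negative. Scaled, 14 were positive and 11 negative, where 34.1% of all tested genes were positive and 32.8% negative. The median was 1.22 as deposited, against 1.06 over all tested genes, and 0.11 scaled, against 0.05. Positive on both scales were 14 genes: Ccna2, Ccnb2, Cdc25b, Plk1, Melk, Pbk, Ttk, Aurkb, Nusap1, Dlgap5, Kif23, Anln, Smc2 and Top2a. Plk1 led as deposited with 3.70 ± 0.40 (adjusted p = 6.2e-06; 2.60 scaled), followed by Ttk with 3.69 ± 0.37 (adjusted p = 3.7e-06; 2.70 scaled). Ccnb2, at 2.82 ± 0.10 (adjusted p = 2.5e-09; 1.69 scaled), had a labelled genotype difference of 1.86 in EBSS and of -0.96 in full medium. Cdca8 was negative on both (-0.37, adjusted p = 0.035; -1.50 scaled, adjusted p = 8.4e-06), and Nek2 was called scaled (-1.72, adjusted p = 6.6e-05) but not as deposited (-0.60, adjusted p = 0.054). Of the fibroblast markers 11 of 12 were positive and 0 negative as deposited, and 10 positive and 1 negative scaled, and their part was not tested. Were the genotype labels in EBSS exchanged, the interaction would be -2.23 for Plk1 and -2.26 for Ttk as deposited (-1.51 and -1.64 scaled).

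**Figure D5:**
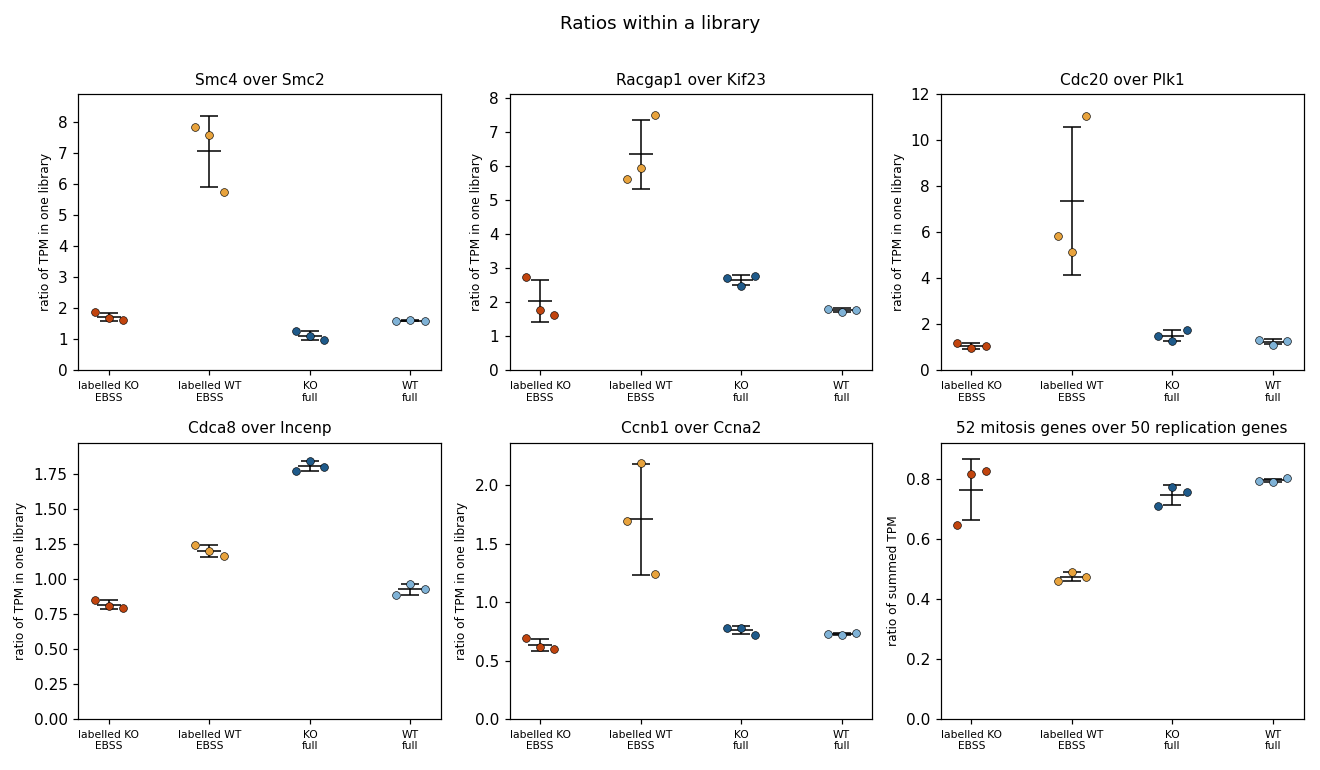
Ratios of TPM between pairs of mitosis genes in the same library, and of the summed TPM of 52 mitosis genes to that of 50 replication genes; points are libraries, bars the mean and SD of a group (n = 3). The libraries labelled WT in EBSS lie apart for Smc4 over Smc2, Racgap1 over Kif23 and Cdc20 over Plk1, and KO cells in full medium lie highest for Cdca8 over Incenp.

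Because Rbbp5 does not follow the labels in EBSS, the groups that differ in both label and medium were also compared. Labelled KO in EBSS against WT in full medium had 0 of 52 genes called by limma on either scale, where 0.134% of all tested genes were called as deposited and 0.111% scaled. The smallest adjusted p was 0.17, for Ect2, the exchange factor that starts ring assembly (-0.52 ± 0.13), and 12 of the 52 genes had an unadjusted p under 0.05, as did 10.9% of all tested genes. Their median difference was -0.26 as deposited, against -0.03 over all tested genes, and -0.09 without replicate 1 of labelled KO in EBSS. The range was -0.52 to 0.18. In replicates 2 and 3 of labelled KO in EBSS, Ttk had 37.7 and 35.9 TPM, against 38 to 39.9 TPM in WT libraries in full medium, and Ccnb2 had 110 and 107 TPM, against 104 to 106 TPM. Other genes were lower in these 2 replicates, as Ect2 with 34.1 and 33.8 TPM, against 44.1 to 49.6 TPM in WT libraries in full medium, and Smc4 with 104 and 101 TPM, against 120 to 122 TPM. With replicate 1 in the group the interval of a single gene is wide. Without replicate 1, 0 of the 52 genes were called as deposited too, where 0.182% of all tested genes were. In that fit 9 of the 52 had an unadjusted p under 0.05. A p that misses the threshold does not show that the groups are alike.

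Labelled WT in EBSS against KO in full medium gave 0 genes called higher and 48 lower as deposited, where 11.6% of all tested genes were higher and 63.5% lower. Scaled, 5 were higher and 33 lower, where 29.5% of all tested genes were higher and 33.7% lower. The median difference was -1.42 as deposited, against -0.73 over all tested genes, and -0.64 scaled, against -0.06. Melk had 6.46, 6.31 and 5.92 TPM in labelled WT libraries in EBSS, against 44, 46.6 and 45.1 TPM in KO libraries in full medium (-2.68, adjusted p = 9.7e-09; -1.95 scaled). Ttk (-2.53; -1.86 scaled), Spc25 (-2.52; -1.75 scaled) and Ckap2l (-2.52; -1.76 scaled) followed. Smc4 (0.93), Cenpa (0.76) and Cdc20 (0.71) were higher scaled only, with 0.13, -0.04 and -0.10 as deposited, while Cdc25b and Ncapd2 were called lower as deposited (-0.25 and -0.34) and higher scaled (0.54 and 0.47). The ratio of Cdca8 to Incenp was 1.25, 1.2 and 1.16 in labelled WT in EBSS, against 1.78, 1.85 and 1.8 in KO cells in full medium.

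Other cell cycle genes, in lists of known function, were read for context, and their counts stand beside the shares of all tested genes. Between KO and WT cells in full medium those shares were 20.1% higher and 35.8% lower as deposited and 26.8% and 27% scaled, and between EBSS and full medium in labelled WT libraries 9.25% and 71.8% as deposited and 30.3% and 35.7% scaled. No list was tested against the other genes. Of 19 transcription regulators of the cell cycle, 5 were higher and 5 lower in KO against WT cells in full medium as deposited, and 6 and 2 scaled, led by Rbl2 and Lin37 of the repressive DREAM complex (0.90 and 0.87). Foxm1, an activator of mitotic genes, had 65.2, 72.6 and 75.4 TPM in KO libraries, against 68, 70.2 and 68.6 TPM in WT libraries (0.04, adjusted p = 0.74). Between EBSS and full medium in labelled WT libraries the same list had 1 higher and 15 lower as deposited and 4 higher and 6 lower scaled, led by E2f8 and Rbl1 (-2.92 and -2.51; scaled -2.05 and -1.59). Foxm1 differed by -1.06 as deposited and -0.08 scaled there.

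Among 36 other kinetochore and checkpoint genes, 9 were higher and 9 lower in KO against WT cells in full medium as deposited, and 13 and 6 scaled, led by the centromere genes Cenpx and Cenpm (1.91 and 1.23). In labelled WT libraries 0 were higher and 34 lower in EBSS as deposited, and 6 higher and 15 lower scaled. Of 17 other condensin and cohesin genes, 0 were higher and 8 lower in KO cells in full medium as deposited, and 3 and 7 scaled, led by the cohesin genes Stag1 and Pds5b (-1.32 and -0.92). The same list had 0 higher and 16 lower in labelled WT libraries in EBSS as deposited, and 4 and 7 scaled. Of 17 APC/C subunits, activators and inhibitors, 5 were higher and 5 lower in KO cells in full medium as deposited, and 7 and 4 scaled, led by the falls of the subunits Anapc1 and Cdc26 (-0.97 and -0.88). In labelled WT libraries in EBSS 1 was higher and 15 lower as deposited, and 5 and 7 scaled, with the largest changes in Cdc23 and Anapc1 (-2.27 and -2.18). Of 15 tested entry and exit regulators of a list of 17, 2 were higher and 7 lower in KO cells in full medium as deposited, and 3 and 3 scaled. In labelled WT libraries in EBSS 2 were higher and 10 lower as deposited, and 7 and 3 scaled, and cyclin F, Ccnf, and the kinase Mastl fell most (-2.57 and -1.99). The replication genes had 11 of 50 higher and 18 lower in KO cells in full medium as deposited, but 19 higher and 10 lower scaled, so their balance depends on the scale. Rrm2, a ribonucleotide reductase subunit, and Chaf1b, a chromatin assembly factor subunit, rose on both (1.23 and 0.98; scaled 1.42 and 1.17).

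Cdkn1a, which encodes the CDK inhibitor p21 and is induced by p53, had 179, 132 and 122 TPM in labelled KO in EBSS, 305, 315 and 391 TPM in labelled WT in EBSS, 255, 298 and 277 TPM in KO cells in full medium and 131, 130 and 137 TPM in WT cells in full medium. It rose by 1.06 in KO against WT cells in full medium (adjusted p = 6.7e-05) and by 1.33 in EBSS against full medium in labelled WT cells (adjusted p = 3.6e-06), and on the scaled values by 1.24 and 2.33. The whole list of 29 p53 targets and CDK inhibitors had 8 higher and 11 lower in the first comparison as deposited, and 8 and 5 scaled. Its largest change there as deposited was a fall, of Pmaip1 (-1.20, and -1.01 scaled). In the second it had 8 higher and 12 lower as deposited and 18 higher and 4 lower scaled, with a scaled median of 0.88. The largest changes as deposited there were falls of Cdkn2b and Cdkn1c (-2.58 and -1.92, and -1.61 and -0.99 scaled). The largest rise in the list was 1.83 as deposited and 2.81 scaled, so on the scaled values the largest change was a rise.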

How the data were processed

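RNA from MEFs was sequenced after a PureLink RNA kit with DNase and an Illumina TruSeq library kit, per the labels' protocols. Salmon and the mouse build mm10 are named in the submitters' processing notes, without a version. The deposited values are TPM, made by the authors for 12 libraries in 1 table; TPM keeps no depth, so sequencing depth is unknown and no counting interval is given. The 12 columns summed to 92.3% to 99.4% of a full TPM total. No batch is given in the labels.

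The 52 genes were matched by symbol. Members and gene lists were chosen with earlier results of these data known. Genes with at least 1 TPM in at least 3 libraries (12653 of 25117) were tested on log2(TPM + 1) with limma 3.58.1 in R 4.3.3 (lmFit and eBayes with trend, 1 mean per group over all 12 libraries), with Benjamini-Hochberg adjustment over all tested genes at 0.05. A log2 difference on this scale understates the change of low genes. Scaled TPM used median-of-ratios size factors from 11892 genes above 0 in all libraries. The test was also run on simulated data in which each gene had the same spread in all groups. The real groups differ in spread, so the simulation does not cover how that affects the calls.

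Values by library are given for the most abundant member of each role and for the 3 largest called rises and falls of each comparison on each scale; other values were chosen after they were seen. For other lists at most 2 called genes with the largest change are named, plus Foxm1 and, for Cdkn1a, its values by library. Alternatives were other scalings (median of ratios, quantile, ribosomal protein genes left out), pseudocounts, filters, a fit of the compared groups only, a replicate block and leaving out each library. Promoters are from RefSeq (GRCm38.p6). Figures were drawn with matplotlib 3.10.9.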

Additional observations from a re-analysis of the deposited data

Results flagged for a closer look

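By the interaction term of the limma fit, 43 of 52 genes were called positive and 1 negative as deposited. Of all tested genes 64.2% were positive and 12.5% negative, with a median of 1.06. Scaled, 14 were positive and 11 negative, where 34.1% and 32.8% of all tested genes were. The 4 genes flagged here are those with the 3 largest positive values as deposited and the only one called negative on that scale. The labelled genotype difference in EBSS minus that in full medium was 3.70 for Plk1, 3.69 for Ttk and 2.91 for Kif23 on the log2 scale as deposited. For Cdca8 it was -0.37, a call lost in 6 of the 12 fits that each left out 1 library. Scaled, the values were 2.60, 2.70, 1.81 and -1.50. Rbbp5 itself does not follow the genotype labels in EBSS, with an interaction of 2.52 as deposited and 1.42 scaled. Rbbp5 in labelled WT libraries in EBSS lay above KO libraries in full medium, by 0.55 as deposited and 1.31 scaled. Between labelled KO in EBSS and WT in full medium 0.134% of all tested genes were called as deposited. Whether the genotype or medium labels of the EBSS libraries hold was not tested. Were the genotype labels exchanged, the interaction as deposited would be -2.23 for Plk1, -2.26 for Ttk, -2.16 for Kif23 and -1.36 for Cdca8. Scaled, it would be -1.51, -1.64, -1.44 and -0.60. These values cover only that case and were computed after seeing the data.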

How the results depend on the processing

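Between KO and WT cells in full medium the counts of mitosis genes called (7 higher, 12 lower) became 12 and 5 with median-of-ratios scaling, 11 and 19 with only the compared groups in the fit, 13 and 19 with replicate 1 of labelled KO in EBSS and replicate 3 of labelled WT in EBSS both left out, and 17 and 7 with scaling and the first of these left out. The last 2 alternatives were chosen after seeing the data. For these and the counts below, shares of all tested genes are given above for the main fits as deposited and scaled. For the other alternatives the counts cannot tell a change in the mitosis genes from a change in calls over all genes. For labelled KO against labelled WT in EBSS (50 higher, 0 lower) the counts were 18 and 9 with scaling, 24 and 6 with quantile normalization, and 32 and 8 with scaling without that KO library. For EBSS against full medium in labelled WT cells (0 higher, 50 lower) they were 7 and 33 with scaling with or without that library, and 2 were higher with quantile normalization. In labelled KO cells the 5 genes higher and 14 lower became 3 and 21 with scaling, and 17 were higher with both libraries left out. The interaction (43 positive, 1 negative) gave 14 and 11 with scaling, 24 and 6 with quantile normalization, 23 and 11 with scaling without that library, and 3 negative without ribosomal protein genes. Labelled KO in EBSS against WT in full medium (0 lower) gave 1 lower with only the compared groups and 3 with both libraries left out. Labelled WT in EBSS against KO in full medium (0 higher) gave 5 with scaling, 4 with quantile normalization, 1 without ribosomal protein genes and 6 with scaling without that library.

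Leaving out 1 library at a time gave 3 to 9 higher and 6 to 16 lower between KO and WT cells in full medium, 3 to 12 higher for EBSS in labelled KO cells, 0 to 2 negative interactions, 0 to 2 lower for labelled KO in EBSS against WT in full medium, and 0 to 1 higher for labelled WT in EBSS against KO in full medium. The log2 difference ranged from -0.34 to 0.06 for Nek2 (EBSS in labelled WT) and -0.09 to 0.13 for Ncapd2 (interaction). For labelled WT in EBSS against KO in full medium it ranged from -0.18 to 0.15 for Cenpa and -0.21 to 0 for Cdc20. Some calls as deposited were lost in many of these 12 fits. Ckap2 lost its call between the labels in EBSS in 10, and Plk1 its rise in labelled KO cells in 8. Spc25 and Dlgap5 (KO against WT in full medium) and the Cdca8 interaction each lost the call in 6.

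Directions that turned are given for scaling, quantile normalization, ribosomal protein genes left out, and scaling without replicate 1 of labelled KO in EBSS, in that order. For labelled KO against labelled WT in EBSS they were -0.79, -0.46, -0.25 and -0.62 for Ncapd2 (0.16 as deposited), -0.77, -0.65, -0.24 and -0.75 for Nek2 (0.17) and -0.63, -0.5, -0.09 and -0.43 for Ckap2 (0.32). For EBSS in labelled WT cells they were 0.9, 0.79, 0.34 and 0.89 for Nek2 (-0.08) and 0.82, 0.46, 0.25 and 0.82 for Ncapd2 (-0.17), and Cdc20 (-0.56) turned to 0.43 with scaling, 0.04 with quantile normalization and 0.42 with scaling without that library. For labelled WT in EBSS against KO in full medium they were 0.76, 0.61, 0.33 and 0.75 for Cenpa (-0.04) and 0.71, 0.53, 0.27 and 0.7 for Cdc20 (-0.1), and with both libraries left out 0.15 and 0. The Ncapd2 interaction (-0.01) was 0.22 with both left out. The cause was not tested.

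Same-numbered libraries did not deviate together (18 correlations from -0.07 to 0.08), and the main fit did not pair them. In each EBSS group 1 library stands apart, so these correlations cannot show whether same-numbered libraries shared a culture or embryo. A replicate block gave 2 negative interactions. The replicate block with scaling gave 12 higher and 5 lower between KO and WT in full medium, 20 and 9 between the labels in EBSS, 7 and 32 for EBSS in labelled WT cells, 3 higher in labelled KO cells, 17 and 11 for the interaction and 5 higher for labelled WT in EBSS against KO in full medium. Each group holds 1 library of each number, so a block cannot change a log2 difference, only its error. The values for the genes above had to equal those of scaling alone. They were -0.79 for Ncapd2, -0.77 for Nek2 and -0.63 for Ckap2 between the labels in EBSS. In labelled WT cells they were 0.9, 0.82 and 0.43 for Nek2, Ncapd2 and Cdc20. For labelled WT in EBSS against KO in full medium they were 0.76 and 0.71 for Cenpa and Cdc20. Over 39 pairs of a gene and a comparison, 759 of 891 alternatives kept direction and call, 54 lost the call, 29 gained it and 49 reversed. Alternatives with a replicate block, counted among the 891, can differ from the same fit without it only in the call. TPM keeps no depth, so what depth limits could not be assessed.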
